A study of Homo sapiens with 6 samples.

Results

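The mature microRNAs miR-10a-5p, miR-10b-5p, miR-196a-5p and miR-196b-5p are made from hairpins that lie inside the human HOX gene clusters. They were chosen by their miRBase mature accessions (MIMAT0000253, MIMAT0000254, MIMAT0000226 and MIMAT0001080), and each accession stood on 1 probe, so that the set comprised 4 of the 1212 probes in the deposited table. All 4 probes had a value on all 6 arrays and were among the 1038 probes that met this condition and were tested. The arrays were 1-colour microRNA arrays of Huh7, a line derived from a human hepatocellular carcinoma. Huh7 cells given 10 mM metformin for 72 h (3 arrays) were compared with Huh7 cells kept for the same time without it (control, 3 arrays). Metformin is a biguanide used against type 2 diabetes, and the series asked which microRNAs accompany its effect on tumour cells. No genetic change was made to either group, and both rest on a single cell line. Separate cultures are not named for the replicates, and the errors and p-values therefore cover only the variation among these arrays, part or all of which may be technical.

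HOX genes encode transcription factors that set position along the body axis, and they lie in 4 clusters, HOXA to HOXD. The miR-10 and miR-196 genes sit between the HOX genes of these clusters and are often transcribed together with their neighbours. Their products repress messenger RNAs that pair with the seed near the 5′ end of the microRNA, and several of these targets are themselves HOX messages. miR-196 directs cleavage of the Hoxb8 message in mouse embryos through near-complete pairing. miR-10b was studied as a promoter of invasion in breast cancer cells.

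In the RefSeq annotation of GRCh38.p14, MIR10A lay at chr17:48579838-48579947 on the minus strand, within the span of HOXB3 and between HOXB4 and HOXB5. MIR10B lay at chr2:176150303-176150412 on the plus strand, with HOXD8 and HOXD4 as its nearest HOX genes. MIR196A1 lay at chr17:48632490-48632559 on the minus strand between HOXB9 and HOXB13. MIR196A2 lay at chr12:53991738-53991847 on the plus strand between HOXC10 and HOXC9. MIR196B lay at chr7:27169480-27169563 on the minus strand between HOXA9 and HOXA10. The hairpins other than MIR10A lay within the span of no HOX gene named by cluster letter and number. Readthrough and antisense genes of the clusters were not searched. MIR196A1 and MIR196A2 give the same mature miR-196a-5p, so its probe cannot tell the HOXB copy from the HOXC copy.

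The RefSeq table held a mature sequence for 3 of the 4 microRNAs. They are shown 5′ to 3′ with the seed, bases 2 to 8, in capitals, because the seed groups the microRNAs by the targets they can pair with.
miR-10a-5p: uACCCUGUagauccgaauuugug
miR-196a-5p: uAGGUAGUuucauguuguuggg
miR-196b-5p: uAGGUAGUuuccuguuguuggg
The sequence of miR-10a-5p was read from chr17:48579904-48579926 (minus strand), that of miR-196b-5p from chr7:27169528-27169549 (minus strand), and that of miR-196a-5p from chr12:53991762-53991783 (plus strand) and chr17:48632532-48632553 (minus strand). miR-196a-5p and miR-196b-5p had the same seed and differed by 1 base, A12C, written with the base of miR-196a-5p first and counted from the 5′ end. Of the 2370 human mature microRNA names in the table, these were the 2 that carried the seed AGGUAGU at bases 2 to 8. The probe sequences were not used here. How far a probe also bound the paralogue that differs by 1 base was not tested, so values of miR-196a-5p and miR-196b-5p may share signal. Shared signal between miR-10a-5p and miR-10b-5p was not tested either. Without a sequence of miR-10b-5p the bases that differ in that pair could not be counted.

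Relatives outside the HOX clusters carry runs in common with them, written here in capitals. The run marks where a shared probe signal could lie for miR-100-5p and a shifted seed for let-7a-5p.
miR-10a-5p: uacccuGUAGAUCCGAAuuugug
miR-100-5p: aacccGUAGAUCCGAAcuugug
miR-196a-5p: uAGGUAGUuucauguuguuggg
let-7a-5p: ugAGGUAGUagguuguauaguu
miR-100-5p, encoded by MIR100 at chr11:122152275-122152296 (minus strand), was 3 single-base edits from miR-10a-5p and shared a run of 11 bases with it. The miR-196 seed appeared 1 base further along, at bases 3 to 9, in 9 mature names, which were let-7a, b, c, d, f, g and i, miR-98-5p and miR-4500. The copy of let-7a-5p shown is that of MIRLET7A1 at chr9:94175962-94175983 (plus strand). let-7a-5p shared a run of only 7 bases with miR-196a-5p, the seed itself, and was 9 single-base edits from it. Neither the files nor the reference tables pair another probe's accession with a name, so no value is given for these relatives, for the opposite arms of the 4 hairpins or for miR-615 of the HOXC cluster. For the same reason the cells were not checked against liver or other cell type marker microRNAs.

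No probe passed an adjusted p under 0.05 in the limma fit of metformin against control (0 of 1038, or 0%), and 28 probes (2.7%) had an unadjusted p under 0.05. The 4 HOX-embedded microRNAs added 0 to either count. Array medians lay between 22.8 and 24.1, and metformin replicate 2 had the most empty cells, 113, against 3 to 36 on the other arrays. In group means, 2 of the 4 were higher and 2 were lower with metformin. The median of their 4 log2 differences was 0.04, against 0.03 over all probes tested.

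miR-10a-5p, the HOXB member of the miR-10 pair, had intensities of 19.8, 8.8 and 16.8 on metformin replicates 1, 2 and 3, against 24.4, 21.9 and 22.4 on control replicates 1, 2 and 3. All 3 metformin values lay below all 3 control values, the one case among the 4 microRNAs in which the groups did not overlap. Groups that did not overlap, in either direction, were found for 79 of 1038 probes (7.61%). Of these, 33 (3.18% of all tested) had metformin values wholly below control, and the share was 4.23% among the 260 probes of similar brightness (geometric mean intensity 18.0 to 22.5). The mean was 15.1 ± 5.69 with metformin and 22.9 ± 1.32 in control (SD, n = 3 each). The log2 difference of -0.68 (SE 0.33, 95% interval -1.44 to 0.09) had an unadjusted p of 0.0748 and an adjusted p of 0.991 in limma. It ranked 49th of 1038 by unadjusted p, and 59 probes (5.68%) had a group mean lower by more than 1.5-fold with metformin. Metformin replicate 2 carried much of the difference. There 9.92% of the probes with a value read lower than miR-10a-5p, against 16.7% to 55.9% on the other arrays. Empty cells, 113 on that array and 3 on metformin replicate 3, are left out of these shares. Counted as low values, they would lift the share on metformin replicate 2 above that on metformin replicate 3. That the share was lowest on metformin replicate 2 thus depends on leaving them out. The value of 8.8 was 1.42 times the lowest value of metformin replicate 2. Without metformin replicate 2 the log2 difference was -0.33.

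miR-10b-5p, the HOXD paralogue of miR-10a-5p, had intensities of 7.7, 9.9 and 20.4 on metformin replicates 1, 2 and 3, against 8.2, 13.9 and 8.4 on control replicates 1, 2 and 3. Both groups held 2 low values and 1 higher one, and they overlapped. The low values were near the bottom of the arrays, since the probe stood at 1.33 to 4.34 times the lowest value of its array and at the 0.963 percentile of tested probes by mean brightness. The mean was 12.7 ± 6.79 with metformin and 10.2 ± 3.23 in control (SD, n = 3 each). The log2 difference was 0.23 (SE 0.41, 95% interval -0.71 to 1.18; adjusted p = 0.991 in limma). Without metformin replicate 3 it turned to -0.17. The interval spans changes from 1.63-fold lower to 2.26-fold higher with metformin, so neither a 2-fold higher level nor no change was excluded by these arrays.

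miR-196a-5p, which the HOXB and HOXC copies both encode, was the brightest of the 4 and had the narrowest 95% interval. Its intensities were 61.6, 90.2 and 70.5 on metformin replicates 1, 2 and 3, against 62.7, 58.1 and 63.5 on control replicates 1, 2 and 3. Metformin replicates 2 and 3 lay above every control value, and metformin replicate 1 lay between control replicates 2 and 1. On each array between 88.3% and 89.3% of the probes with a value read lower. Its place among them hardly moved, even on metformin replicate 2. The mean was 74.1 ± 14.6 with metformin and 61.4 ± 2.91 in control (SD, n = 3 each). The log2 difference of 0.25 (SE 0.24, 95% interval -0.29 to 0.80; adjusted p = 0.991 in limma) corresponds to 1.19-fold, with bounds of 0.816 and 1.74. It was the 1 probe of the 4 whose interval left out a 2-fold change in either direction, as intervals did for 570 of all 1038 probes (54.9%). That share follows brightness, at 88.1% of the 260 brightest probes, which include miR-196a-5p, and 8.49% of the 259 dimmest, which include miR-10b-5p. Among the 260 brightest probes, where miR-196a-5p lay, the median log2 difference was 0.10. After quantile normalization the log2 difference of miR-196a-5p was 0.12, and without metformin replicate 2 it was 0.10.

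miR-196b-5p, the HOXA paralogue, had intensities of 11.8, 32.9 and 25.8 on metformin replicates 1, 2 and 3, against 27.4, 22.1 and 23.2 on control replicates 1, 2 and 3. The metformin arrays held both the lowest and the highest of the 6 values, with the control values between them. The mean was 23.5 ± 10.7 with metformin and 24.2 ± 2.80 in control (SD, n = 3 each). The log2 difference was -0.16 (SE 0.39, 95% interval -1.06 to 0.73; adjusted p = 0.991 in limma). Metformin replicate 1 set its sign, and without that array the difference was 0.27.

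**Figure D1:**
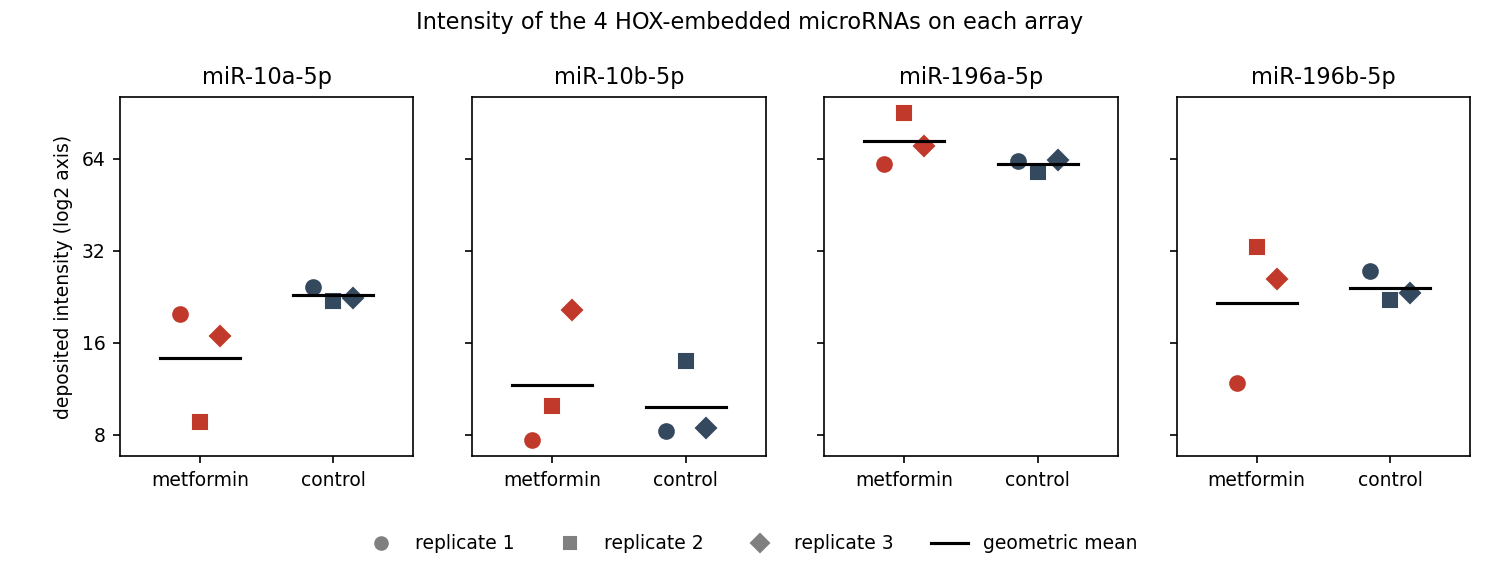
Deposited intensity (log2 axis) of the 4 microRNAs on the 3 metformin and 3 control arrays, with a symbol for each replicate number and a bar at the geometric mean of the group. The groups separate for miR-10a-5p, from 8.8 to 19.8 with metformin and from 21.9 to 24.4 in control, and overlap for the other three.

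**Figure D2:**
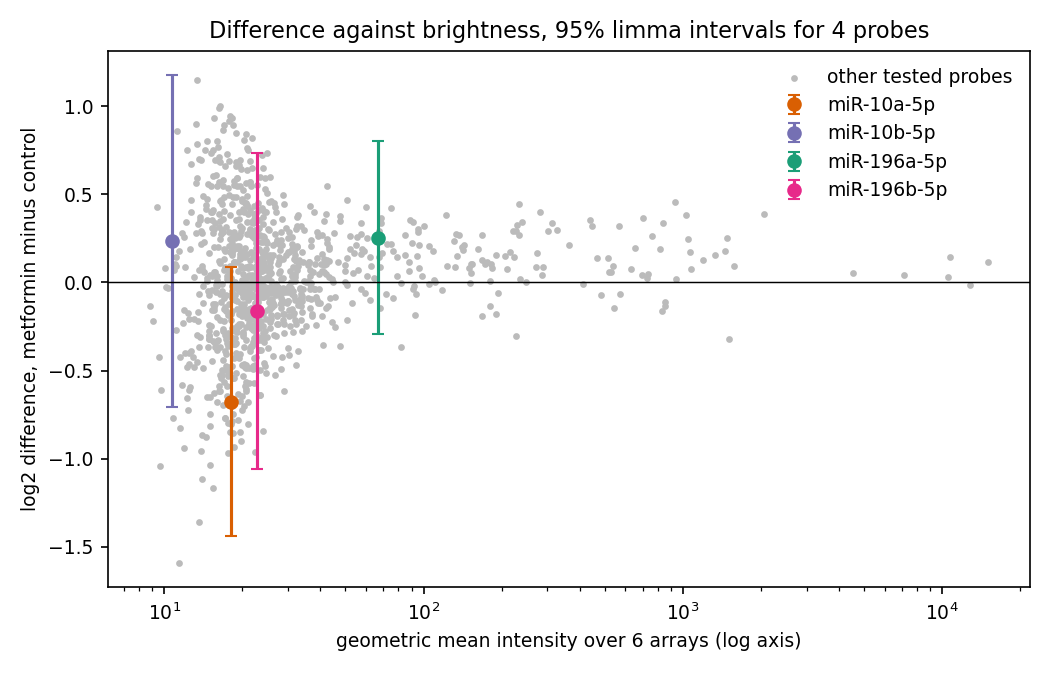
Log2 difference of metformin minus control against the geometric mean intensity over 6 arrays (log axis) for the 1038 tested probes, with limma 95% intervals for the 4 microRNAs. Each of the 4 intervals includes 0, and miR-196a-5p, at a geometric mean of 67.0, has the narrowest.

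Within the groups the pooled SD of log2 intensity was 0.20 for miR-196a-5p, 0.44 for miR-10a-5p, 0.56 for miR-196b-5p and 0.60 for miR-10b-5p. The tested probes were also put into 4 bins of equal size by brightness, and the median SD of the bin was 0.24 for that of miR-196a-5p, 0.44 for that of miR-10a-5p, 0.30 for that of miR-196b-5p and 0.64 for that of miR-10b-5p. The SD of miR-196b-5p was the one well above the median of its bin, a difference that was not tested. Its geometric mean of 22.8 lay near the lower edge of that bin (22.5 to 32.5), and the next dimmer bin had a median SD of 0.44. miR-10a-5p, at 18.1, also lay near the lower edge of its bin (18.0 to 22.5), where the next dimmer bin had 0.64. The SD of miR-196b-5p, 0.56, was above the median of both its bin and the dimmer one. That of miR-10a-5p, 0.44, was below the median of the dimmer bin. The size of the contrast for miR-196b-5p therefore depends on where the bins were cut.

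The 4 microRNAs each had a wider spread on the metformin arrays than on the control arrays. The SD of log2 intensity of miR-10a-5p was 0.62 over the 3 metformin arrays and 0.08 over the 3 control arrays. It was 0.73 with metformin and 0.43 in control for miR-10b-5p. It was 0.28 with metformin and 0.07 in control for miR-196a-5p. For miR-196b-5p it was 0.77 with metformin and 0.16 in control. The limma fit takes the same SD for both groups of a probe. Its SEs, intervals and p-values therefore do not allow for these unequal spreads. Over all tested probes the metformin SD was the larger for 498 of 1038 (48.0%), and the median SDs were nearly equal, 0.322 with metformin and 0.321 in control. The ratio of metformin SD to control SD was 7.52 for miR-10a-5p, a ratio exceeded by 2.31% of probes. It was 4.75 for miR-196b-5p (exceeded by 5.59%), 4.02 for miR-196a-5p (7.32%) and 1.70 for miR-10b-5p (26.8%). Each ratio was lower without the metformin array that lay farthest out for that microRNA, a fall that picking that array builds in. Without metformin replicate 2 the ratio was 2.04 for miR-10a-5p and 1.99 for miR-196a-5p. Without metformin replicate 1 it was 1.53 for miR-196b-5p, and without metformin replicate 3 it was 0.596 for miR-10b-5p, whose control SD was then the larger. The metformin SD was the larger for 4 of the 4 without metformin replicate 1 (37.0% of all probes), for 4 without metformin replicate 2 (39.0%) and for 3 without metformin replicate 3 (47.1%). This comparison of spreads was chosen after the values were seen, has 3 arrays a side when none is left out, and was given no test. With a metformin array left out, an SD over 2 arrays stands against an SD over 3 control arrays. An SD over fewer arrays tends to be lower, so part of the fall from 48.0% and in the ratios is built in.

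**Figure D3:**
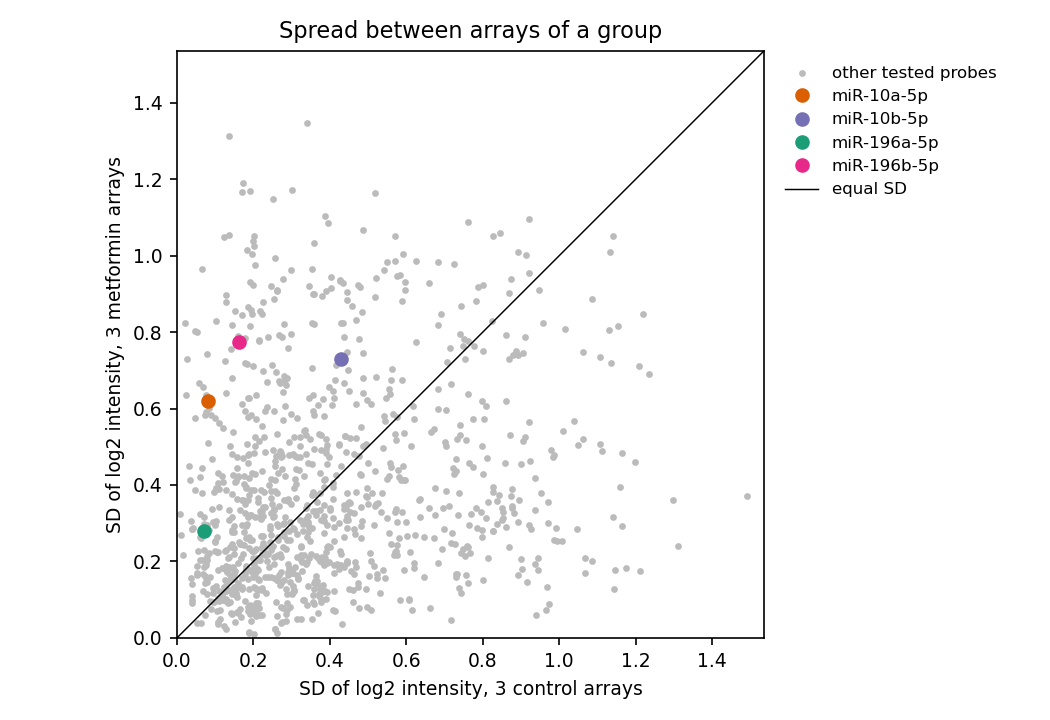
SD of log2 intensity over the 3 metformin arrays against that over the 3 control arrays for each tested probe, with the line of equal SD. The 4 microRNAs lie above the line, where 48.0% of all probes lie.

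The arrays that stood out were not the same for each microRNA. Metformin replicate 2 held the lowest value of miR-10a-5p and the highest of both miR-196a-5p and miR-196b-5p. Metformin replicate 3 held the highest value of miR-10b-5p. Metformin replicate 1 held the lowest values of miR-10b-5p and miR-196b-5p. Relative to its mean over the 6 arrays, metformin replicate 2 stood at -1.04 for miR-10a-5p, 0.43 for miR-196a-5p and 0.53 for miR-196b-5p on the log2 scale. The part of its 113 empty cells in these values was not tested.

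Ratios within an array cancel a scale factor common to that array, so the paralogues were also compared as log2 ratios. A ratio between different probes does not say which microRNA is more abundant, and only its change between the groups is read here. The log2 ratio of miR-10a-5p to miR-10b-5p was 1.36, -0.17 and -0.28 on metformin replicates 1, 2 and 3, against 1.57, 0.66 and 1.42 on control replicates 1, 2 and 3. Metformin replicates 2 and 3 lay below every control array and metformin replicate 1 lay among them. The mean was 0.30 ± 0.92 with metformin and 1.21 ± 0.49 in control (SD, n = 3 each), a difference of -0.91 with a two-sided exact permutation p of 0.2.

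For the miR-196 pair the log2 ratio of miR-196a-5p to miR-196b-5p was 2.38, 1.46 and 1.45 on metformin replicates 1, 2 and 3, against 1.19, 1.39 and 1.45 on control replicates 1, 2 and 3. Metformin replicate 1 stood alone, and the other 5 arrays lay between 1.19 and 1.46. The mean was 1.76 ± 0.54 with metformin and 1.35 ± 0.14 in control (SD, n = 3 each), a difference of 0.42 with a two-sided exact permutation p of 0.2. Without metformin replicate 1 the difference was 0.11. Both p-values stayed at 0.2 after Benjamini-Hochberg adjustment over the 2 ratios, and 3 arrays against 3 cannot give less than 0.1.

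**Figure D4:**
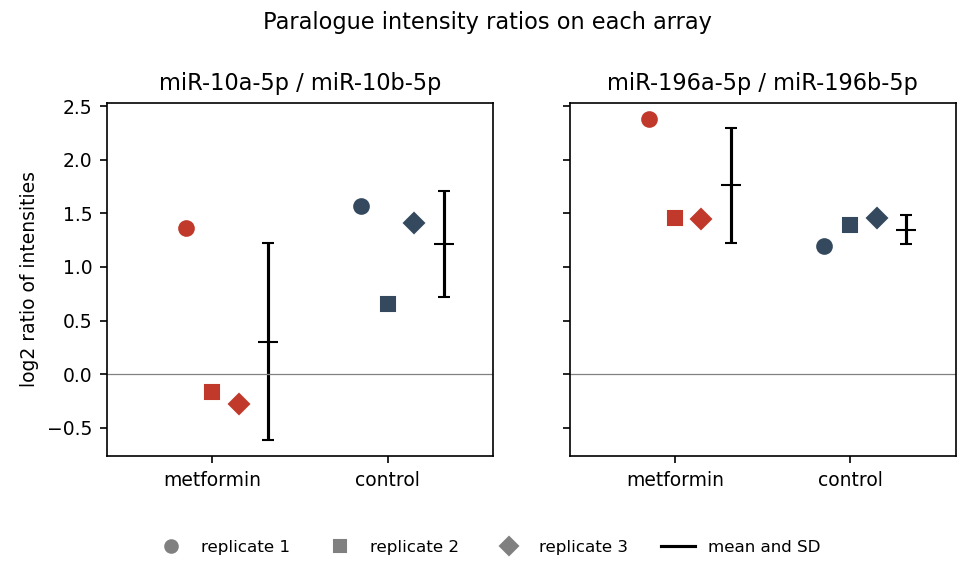
Log2 ratio of the intensities of the paralogues on each array, miR-10a-5p over miR-10b-5p and miR-196a-5p over miR-196b-5p, with mean and SD of the 3 arrays in each group. The miR-10 ratio overlaps between the groups through metformin replicate 1 at 1.36, and the miR-196 ratio has a single high array, metformin replicate 1 at 2.38.

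The probes whose pattern over the 6 arrays was most like that of each microRNA were found by Pearson's r of log2 intensity. None of the 4 microRNAs was among the 3 most like probes of another. The most like probe was MIMAT0005572 for miR-10a-5p (r = 0.99), MIMAT0000231 for miR-10b-5p (r = 0.91), MIMAT0003880 for miR-196a-5p (r = 0.98) and MIMAT0001618 for miR-196b-5p (r = 0.96). These 4 probes had log2 differences of -0.84, 0.31, 0.29 and -0.11, and having been picked for likeness over the same arrays, they give no separate evidence of a direction. The number of other probes with r above 0.9 was 29 for miR-10a-5p, 2 for miR-10b-5p, 16 for miR-196a-5p and 12 for miR-196b-5p, of 1037 each. How many such probes a tested probe typically had was not counted. High values are common over 6 points, and the best match of a tested probe had a median r of 0.98 over all probes. The 5th percentile of best matches was 0.93, and the best match of miR-10b-5p, at 0.91, lay below it. These likenesses are a description of the arrays.

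**Figure D5:**
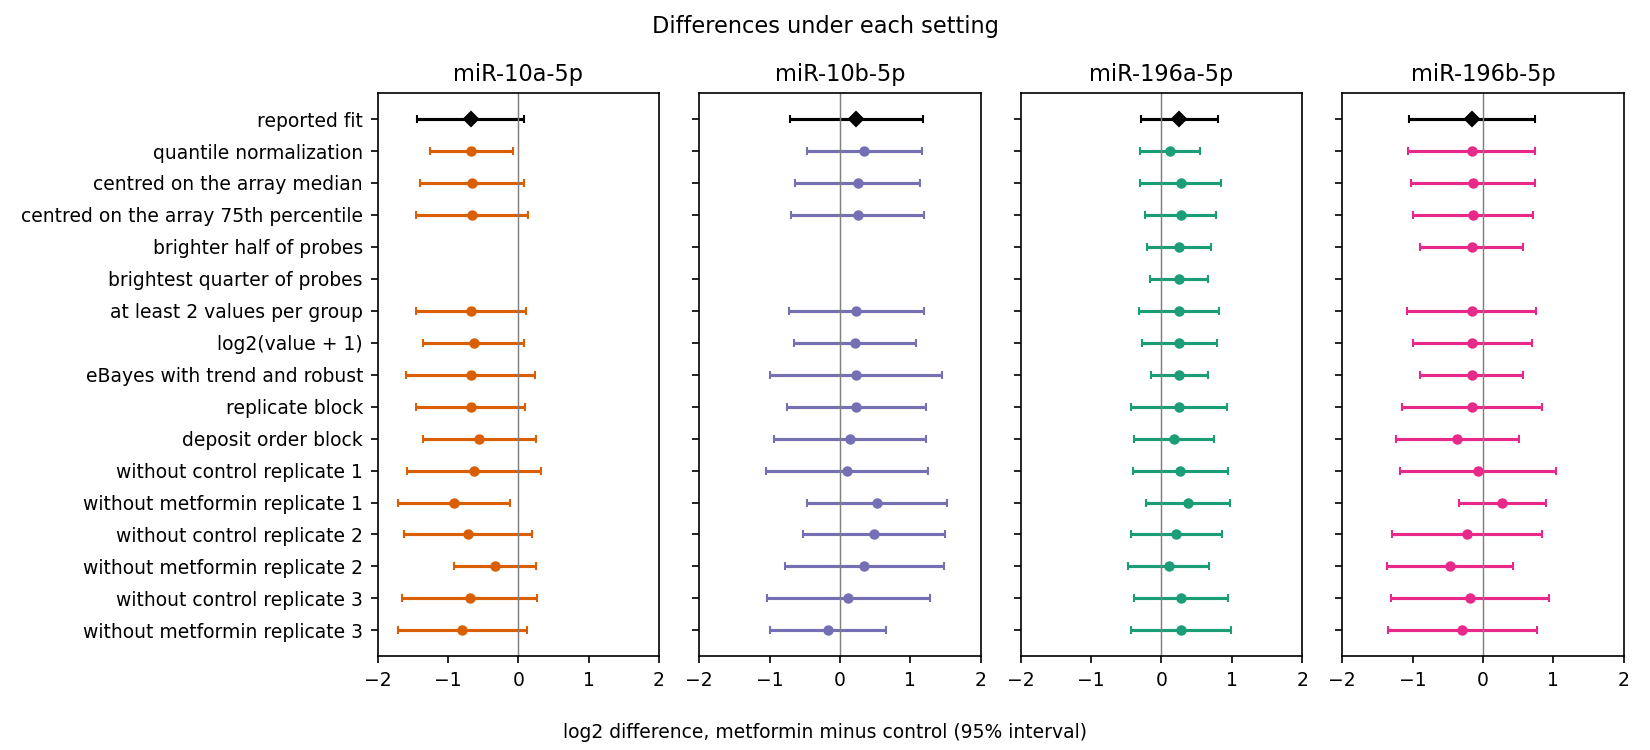
Log2 difference of metformin minus control with its 95% interval for the 4 microRNAs in the reported fit (black) and under each other setting (colour), where a missing point means that the probe was not among those kept. The interval of miR-10a-5p leaves out 0 after quantile normalization and without metformin replicate 1, and the sign turns for miR-10b-5p without metformin replicate 3 and for miR-196b-5p without metformin replicate 1.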

How the data were processed

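The authors labelled total RNA with the dye Hy5 using a microRNA labelling kit, per the labels' protocols, and deposited one table of linear intensity values for 6 arrays of 1212 probes, with empty cells. That the values are processed intensities is inferred from the table, where all lie above 0 and array medians are nearly equal. The lowest value on control replicate 1, 5.86674, has more decimals than the lowest values of the other arrays. The reason is not given, and the values of the 4 microRNAs on control replicate 1 have 1 decimal. Scanner, background correction and scaling are not given in the sources at hand, so no probe could be called above or below background, and the number of arrays limits the precision. The series' design text gives 985 probes.

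Intensities were taken to log2 without a pseudocount. The 1038 probes with 6 values were fitted with limma 3.58.1 in R 4.3.3 (lmFit, eBayes, two-sided, no covariates), with Benjamini-Hochberg adjustment over all of them and 95% intervals that are not adjusted. The procedure was tested on simulated data with independent noise of the same spread in both groups. That setting does not cover unequal spreads like those of the 4 members. Paralogue ratios were compared by exact permutation tests. Plots used matplotlib 3.10.9, and sequences and loci came from RefSeq tables of GRCh38.p14. The members and lists were chosen with earlier results of these data known. Named were the 4 members and, for each, the probe with the highest Pearson r. The fixed rule gave 3 such probes each, of which 1 is printed because none has a name in the files. The fixed lists of other HOX cluster microRNAs, sequence relatives and cell type markers could not be matched to probes.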

Additional observations from a re-analysis of the deposited data

How the results depend on the processing

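At an adjusted p under 0.05 in limma, 0 probes passed under each of the 16 other settings, and the adjusted p of the 4 microRNAs stayed between 0.883 and 0.999. Leaving out 1 array gave log2 differences from -0.91 to -0.33 for miR-10a-5p, from -0.17 to 0.53 for miR-10b-5p (-0.1749 without metformin replicate 3, the sign turned), from 0.10 to 0.38 for miR-196a-5p and from -0.47 to 0.27 for miR-196b-5p (0.2719 without metformin replicate 1, the sign turned). The change in the miR-10 ratio ranged from -1.44 to -0.62 and that in the miR-196 ratio from 0.11 to 0.57. For miR-10a-5p the sign could not turn in this way, because its groups do not overlap. Its unadjusted p was 0.0315 after quantile normalization and 0.0308 without metformin replicate 1, against 0.0748 in the reported fit and 0.226 without metformin replicate 2. After quantile normalization the number of probes at an unadjusted p under 0.05 was 41, against 28. With the first and last 3 arrays deposited as a block, a split that no label calls a batch and that was chosen with earlier results known, the differences were -0.55, 0.14, 0.18 and -0.37 for miR-10a-5p, miR-10b-5p, miR-196a-5p and miR-196b-5p. The labels do not say that replicate numbers pair the samples. Deviations of same-numbered samples correlated at 0.01, -0.27 and -0.02 over all probes, and no sample correlated best with its own number. With the replicate block 0 probes passed, 24 had an unadjusted p under 0.05, the 4 log2 differences were -0.68, 0.23, 0.25 and -0.16 as without it, the 2 ratio changes were -0.91 and 0.42, and their exact p was 0.25 and 0.5, where 3 blocks cannot give less than 0.25. The filters on dim probes removed miR-10a-5p and miR-10b-5p, and the stricter one also miR-196b-5p. All values rest on 3 arrays per group, and signal over background is unknown.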
